A study of Mus musculus with 3 samples.

Results

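The 5 genes Apoe, Apoc1, Clu, Dbi and Abca1, which carry or move lipids in glia, were examined in single retinal cells. They were taken by name, and they are 5 of the 18478 genes in the count table. The cells came from adult mice that carried 3 alleles: Yap5SA+/tg, the reporter ROSA26R-tdTomato+/tg and the driver Glast-CreERT+/tg. In these mice tamoxifen lets Glast-driven CreERT switch on tdTomato and Yap5SA, a form of the transcriptional co-activator YAP that the Hippo kinases cannot restrain. The retinas were injured with NMDA, which kills retinal neurons, and tdTomato+ cells were sorted 2 days later. All 3 10X Chromium runs carry these same labels, so there is no retina without Yap5SA or without NMDA, and every comparison below is between classes of cells within the runs. The labels do not say that the runs came from separate animals, so the spread between runs may be technical.

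Glast marks Müller glia, the radial glia that span the retina, and also retinal astrocytes. ApoE and apolipoprotein C1 are protein parts of lipoprotein particles, ApoE being the one by which receptors take particles up. Clusterin, the product of Clu, is a secreted chaperone also called apolipoprotein J. Abca1 is a membrane transporter that loads cholesterol onto apolipoproteins such as ApoE, and its gene is a well-known target of the liver X receptors (LXR). Dbi encodes the acyl-CoA-binding protein, which holds fatty acyl-CoA in the cytoplasm. In the central nervous system, astrocytes, Müller glia and microglia are the usual sources of ApoE.

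In the mm10 annotation all 5 genes had a single position. Apoe lies on chr7:19696109-19699188 and Apoc1 on chr7:19689481-19692660, both on the minus strand and with 3448 bases between them. Clu lies on chr14:65968483-65981547 on the plus strand, Dbi on chr1:120113280-120121078 on the minus strand and Abca1 on chr4:53030787-53159895 on the minus strand. To show an apolipoprotein gene beside that of its transporter, the 250 bases before the start sites of Apoe and Abca1 in the RefSeq promoter table (GRCm38.p6) are given, each read 5′ to 3′ on the gene's own strand.
Apoe, chr7:19699189-19699438: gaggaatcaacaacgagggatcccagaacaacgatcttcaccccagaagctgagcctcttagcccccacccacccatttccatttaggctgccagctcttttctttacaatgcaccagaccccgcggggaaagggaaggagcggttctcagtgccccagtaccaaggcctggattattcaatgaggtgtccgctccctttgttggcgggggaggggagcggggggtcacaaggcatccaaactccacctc
Abca1, chr4:53159896-53160145: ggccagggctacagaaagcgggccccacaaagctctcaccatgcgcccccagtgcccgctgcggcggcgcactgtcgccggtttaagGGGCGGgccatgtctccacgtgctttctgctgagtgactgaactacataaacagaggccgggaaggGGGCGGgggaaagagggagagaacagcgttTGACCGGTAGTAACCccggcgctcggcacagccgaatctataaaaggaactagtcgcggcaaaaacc
Capitals mark matches to a search for 6 motifs on both strands. The first 5 were an LXR element spelled as TGACC and TAACC with any 4 bases between, a direct repeat of AGGTCA with any 4 bases between, the TEAD motif GGAATG, the CCAAT box CCAAT and the GC box GGGCGG. In these 2 promoters they gave only the 2 GC boxes of Abca1, a motif held by 32.7% of the 32851 promoters searched over the same length. The direct repeat was held by 0.0152%, the TEAD motif by 12.6% and the CCAAT box by 33.8% of them. The LXR spelling had no match in either promoter. A sixth spelling, TGACCG and TAACC with any 4 bases between, was written after that miss and with the Abca1 sequence in view, and it matched Abca1 at -67 to -53 from the start site. It was found in 4 of the 32851 promoters (0.0122%), against 7 (0.0213%) for the first spelling. Since the letters were respelled to a sequence already seen, the match describes the letters in this window and tests nothing.

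The 3 runs held 24672 cells after 23 were removed, with a median of 9418 to 11207 UMIs per cell. No cell had fewer than 3538 UMIs. Pairs of runs shared 83 to 108 cell barcodes. Cells were put into classes by 3 limits. Igfbp2-high cells had at least 5 Igfbp2 UMIs per 10000 and Igfbp2-low cells fewer than 1, cycling cells had at least 2 UMIs of Top2a, Mki67, Cdk1 and Ccnb1 together, and microglia had at least 10 UMIs of C1qa, C1qb and C1qc per 10000. Igfbp2 encodes a secreted binding protein of insulin-like growth factors. There were 6518 Igfbp2-high cells (2110, 2351 and 2057 in runs 1, 2 and 3) and 14999 Igfbp2-low cells, 5571 cycling and 19039 non-cycling cells, and 62 microglia (40, 15 and 7). Near the limits lay 163 cells with Igfbp2 between 5 and 6 and 171 between 4 and 5, and 479 cells with exactly 2 cycle UMIs and 2503 with 1. One microglial cell had C1q between 10 and 15, and 5 other cells had between 5 and 10. The Igfbp2 and cycling classes largely held the same cells: 76.1% of Igfbp2-high cells were cycling, against 1.75% of Igfbp2-low cells, and 89.1% of cycling cells were Igfbp2-high. The summed level of 10 Müller glia markers (Rlbp1, Glul and others) averaged 6380 CPM in Igfbp2-high cells, against 15300 CPM in Igfbp2-low cells. Classes also differed in depth: Igfbp2-high cells had a median of 18735 to 21911 UMIs, against 8522 to 10396 in Igfbp2-low cells. Cycling cells had a median of 20236 to 23154 UMIs, against 8587 to 10226 in non-cycling cells. The cycling limit is a raw count, not scaled to depth, so deeper cells meet it more easily.

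Levels are given as CPM, the share of a gene among the UMIs summed over the cells of a class in a run. Each run then gave a pair of values, which were tested with edgeR's quasi-likelihood test with the run as a block. Changes are log2 with their SE, and a gene is said to rise or fall when its Benjamini-Hochberg adjusted p over all genes tested was under 0.05. The test shares variance estimates across genes, so an SE or p need not reflect the spread of a gene's own runs. Microglia were left out of the Igfbp2 and cycling comparisons.

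All 5 transcripts fell in Igfbp2-high cells as a share of the cells' UMIs. In this comparison 81.5% of the 14611 genes tested were called, 41.6% lower and 39.9% higher, so being called sets no gene apart. The size of the change differed more: 3.79% of genes had a change below that of Apoe, 2.67% below Clu and 1.96% below Apoc1, against 11.8% for Dbi and 31.5% for Abca1.

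Apoe had 1511, 1300 and 1287 CPM in Igfbp2-high cells of runs 1, 2 and 3, against 7489, 6544 and 7610 CPM in Igfbp2-low cells. The runs of the classes did not overlap, as was so for 39.6% of all genes tested on the lower side and 34.7% on the higher side. The change was -2.36 ± 0.08 (SE, n = 3 pairs, edgeR adjusted p = 2.65e-08). Apoc1, a low transcript, had 9.05, 9.12 and 11.8 CPM in Igfbp2-high cells, against 62.7, 70.0 and 83.4 CPM in Igfbp2-low cells. Its change of -2.81 ± 0.06 was the most negative of the members (edgeR adjusted p = 2.55e-09). Apoc1 and Apoe are neighbours in the genome and are known, in human, to share distant enhancers in liver and macrophages.

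Clu had 1197, 891 and 676 CPM in Igfbp2-high cells, against 7222, 5451 and 4556 CPM in Igfbp2-low cells. Its level differed between the runs in both classes, run 1 being highest and run 3 lowest, while the change of -2.61 ± 0.07 was well beyond that spread (edgeR adjusted p = 7.84e-09). Dbi had 2442, 2189 and 1866 CPM in Igfbp2-high cells, against 6128, 6012 and 5816 CPM in Igfbp2-low cells, a change of -1.43 ± 0.08 (edgeR adjusted p = 5.68e-07). The runs of the classes were apart for Clu and for Dbi.

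Abca1, the transporter, had the change closest to 0. It had 34.6, 36.4 and 46.3 CPM in Igfbp2-high cells, against 49.96, 57.8 and 65.1 CPM in Igfbp2-low cells, a change of -0.52 ± 0.06 (edgeR adjusted p = 3.06e-05). Its direction depended on the scale. On the scale of UMIs per cell, added after the levels were seen, Abca1 rose by 0.50 ± 0.09, with 0.803 ± 0.117 UMIs per Igfbp2-high cell and 0.567 ± 0.080 per Igfbp2-low cell (SD, n = 3). On that scale the median of all genes was 0.99, with 74% of genes called higher and 12.4% lower, so Abca1 lay below that shift. Apoe, Apoc1, Clu and Dbi fell on both scales, with changes per cell of -1.34, -1.79, -1.59 and -0.41. UMIs per cell averaged 28.1 in Igfbp2-high and 70.7 in Igfbp2-low cells for Apoe, and 44.6 in Igfbp2-high and 59.0 in Igfbp2-low cells for Dbi.

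**Figure D1:**
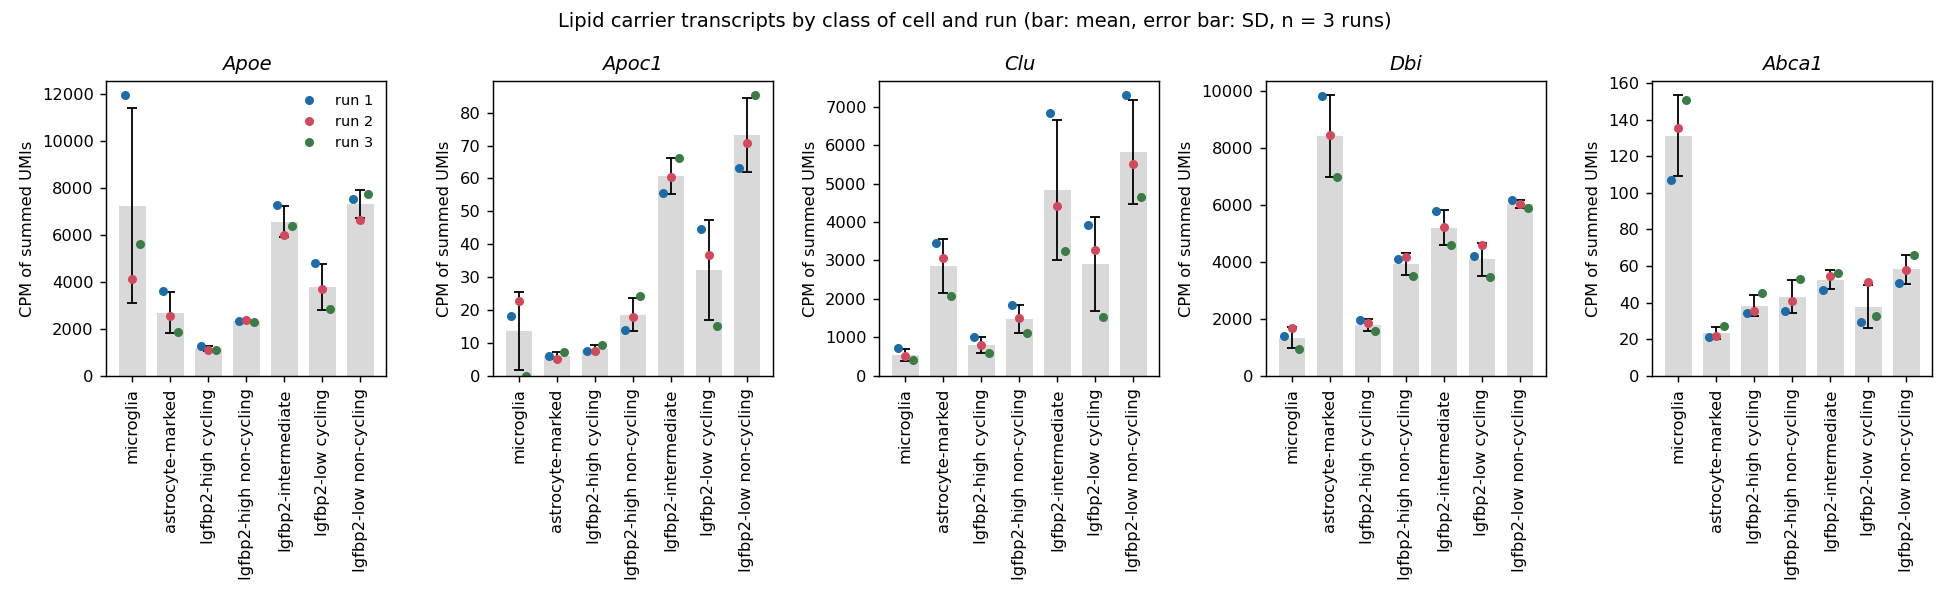
Level of each transcript (CPM of summed UMIs, linear axis from 0) in 7 classes of cells, of which the astrocyte-marked cells are also counted in the Igfbp2 classes; points are the 3 runs, bars the mean and error bars the SD. Apoe, Apoc1 and Clu are low in both Igfbp2-high classes, Dbi is highest in astrocyte-marked cells, and Abca1 is highest in microglia.

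Between the Igfbp2 classes lay 3093 intermediate cells, which had 6557 ± 660 CPM of Apoe and 5208 ± 599 CPM of Dbi (SD, n = 3). In finer bins of Igfbp2 the level of Apoe was not a straight decline. Mean Apoe over runs was 7549 CPM in cells without an Igfbp2 UMI, 5053 CPM above 0 to under 1 per 10000, 7859 CPM from 1 to under 2 and 4168 CPM from 2 to under 5. It was 1627 CPM from 5 to under 10, 1229 CPM from 10 to under 20, 1294 CPM from 20 to under 50 and 1738 CPM at 50 or more. The step lay between 2 and 10 per 10000, and above 10 the level was flat or slightly higher. By construction, the bin above 0 to under 1 holds only cells with more than 10000 UMIs, and depth goes with Apoe in Igfbp2-low cells, as shown next. The same bins among non-cycling cells alone ran from 7608 CPM without Igfbp2 to 1984 CPM at 10 to under 20 and 2718 CPM at 50 or more.

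**Figure D2:**
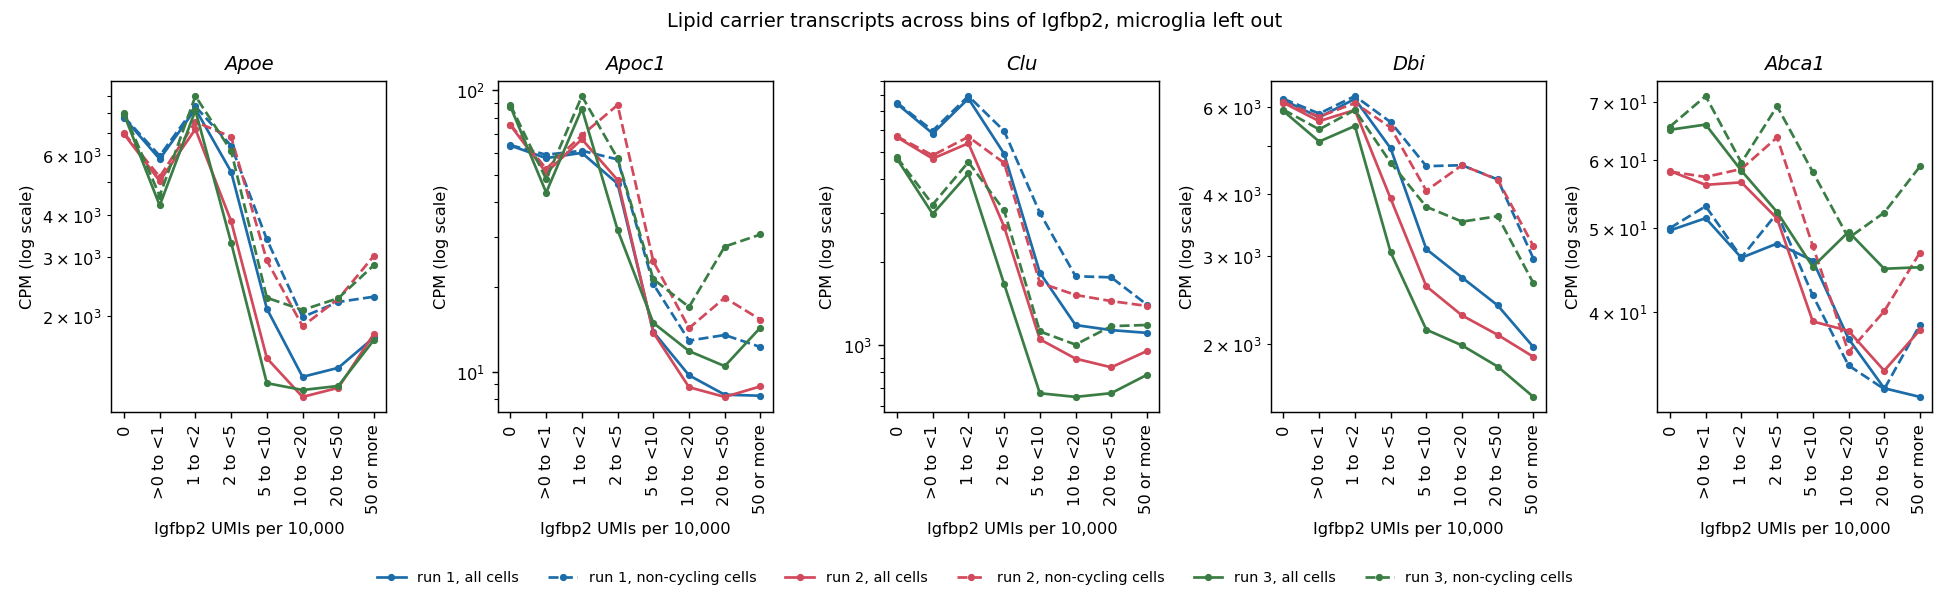
Level of each transcript (CPM, log axis) across 8 bins of Igfbp2 UMIs per 10000, low to high; each colour is a run, with solid lines for all cells and dashed lines for non-cycling cells, microglia left out. Apoe, Apoc1 and Clu drop between 2 and 10 Igfbp2 UMIs per 10000. From 5 upward, non-cycling cells lie above all cells for Apoe, Apoc1, Clu and Dbi. For Abca1 this is mixed, and at 10 to under 20 non-cycling cells lie slightly below all cells in each run.

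Depth was matched in 4 bins of UMIs per cell, chosen after the data were seen. In non-cycling cells the runs of the Igfbp2 classes did not overlap in any of the 4 bins for Apoe, Apoc1, Clu and Dbi. The share of all genes apart was not worked out for these bins. Over all Igfbp2-high and Igfbp2-low cells it was 39.6% on the lower and 34.7% on the higher side, so being apart sets no gene apart from most others. Abca1 overlapped in all but the deepest bin, with 34.3 to 59.8 CPM in Igfbp2-high cells and 50.1 to 68.5 CPM in Igfbp2-low cells at 12000 to under 18000 UMIs. In cycling cells of 18000 UMIs or more, Apoe overlapped as well, with 1081 to 1287 CPM in Igfbp2-high and 1213 to 2405 CPM in Igfbp2-low cells, as did Apoc1, Clu and Abca1. Among non-cycling cells of 12000 to under 18000 UMIs, Apoe averaged 2414 ± 330 CPM in Igfbp2-high cells and 4858 ± 655 CPM in Igfbp2-low cells (SD, n = 3). In cells of 3500 to under 8000 UMIs it averaged 2364 ± 109 CPM in Igfbp2-high and 10447 ± 690 CPM in Igfbp2-low cells. Apoe therefore varied with depth within Igfbp2-low cells and hardly within Igfbp2-high cells. Clu in cells of 12000 to under 18000 UMIs averaged 1387 ± 401 CPM in Igfbp2-high and 4505 ± 1259 CPM in Igfbp2-low non-cycling cells. Thinning every cell to 3500 UMIs before the classes were set kept all 5 members lower in Igfbp2-high cells by the same test.

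Cycling cells differed from non-cycling cells in nearly the same way, which the shared cells of the classes make no independent result. Apoe had 1419, 1223 and 1155 CPM in cycling cells, against 6786, 6281 and 7205 CPM in non-cycling cells, a change of -2.38 ± 0.08 (edgeR adjusted p = 2.17e-08). The changes were -2.79 ± 0.08 for Apoc1, -2.56 ± 0.07 for Clu, -1.57 ± 0.07 for Dbi and -0.51 ± 0.05 for Abca1, each below an edgeR adjusted p of 0.05 and lower in 3 of 3 runs. Here 81.7% of 14807 genes were called, 42.3% lower and 39.4% higher, and the runs did not overlap for 39.9% on the lower and 33.8% on the higher side. Per cell, Apoe, Apoc1, Clu and Dbi fell by 1.31, 1.72, 1.49 and 0.50, while Abca1 rose by 0.55 ± 0.09 against a median of all genes of 1.01, with 74.2% of genes called higher and 11.8% lower.

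Splitting the cells by Igfbp2 and cycling together separated these classes. Within non-cycling cells all 5 members were lower in Igfbp2-high cells, where 64.5% of genes were called, 33.4% lower and 31% higher. Apoe had 2321, 2362 and 2288 CPM in Igfbp2-high non-cycling cells, against 7554, 6623 and 7745 CPM in Igfbp2-low non-cycling cells, a change of -1.61 ± 0.10 (edgeR adjusted p = 1.47e-09). Apoc1 and Clu changed by -1.95 ± 0.15 and -1.93 ± 0.11. Dbi changed by -0.58 ± 0.07, with 4101, 4176 and 3494 CPM in Igfbp2-high non-cycling cells, against 6174, 6052 and 5882 CPM in Igfbp2-low non-cycling cells. Per cell its change was -0.0023 ± 0.09, and it did not pass the test. Both Dbi values include 187 Igfbp2-high non-cycling cells with astrocyte markers, described below, which are high in Dbi. The per-cell change without them was not worked out. Abca1 changed by -0.39 ± 0.09 (edgeR adjusted p = 0.0015), its runs overlapped between the classes, and per cell it was 0.18 ± 0.11 and did not pass.

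Within Igfbp2-high cells, cycling cells had lower Apoe, Apoc1, Clu and Dbi than non-cycling ones, with 51.7% of genes called, 26.1% lower and 25.6% higher. Apoe had 1280, 1117 and 1097 CPM in Igfbp2-high cycling cells, against 2321, 2362 and 2288 CPM in Igfbp2-high non-cycling cells, a change of -1.02 ± 0.10 (edgeR adjusted p = 5.26e-07). Dbi had 1968, 1848 and 1557 CPM in the cycling cells, against 4101, 4176 and 3494 CPM in the non-cycling ones, a change of -1.15 ± 0.07. Apoc1 changed by -1.17 ± 0.18 and Clu by -0.92 ± 0.11. Abca1 had 34.4, 35.6 and 45.0 CPM in the cycling cells and 35.6, 41.1 and 53.0 CPM in the non-cycling cells, and its change of -0.18 ± 0.09 did not pass (edgeR adjusted p = 0.125).

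Igfbp2-low cycling cells were few, with 76, 100 and 87 cells in the runs. Apoe had 4802, 3681 and 2840 CPM in them, against 7554, 6623 and 7745 CPM in Igfbp2-low non-cycling cells, a change of -1.03 ± 0.10 (edgeR adjusted p = 1.96e-06). All 5 members were lower, Abca1 by -0.64 ± 0.15, where 24.2% of genes were called, 11.6% lower and 12.6% higher. The runs of Abca1 overlapped between these classes. Igfbp2-low cycling cells were also deeper, with a median of 11499.5 to 14474 UMIs, against 8490 to 10360.5 in non-cycling ones. In depth bins, mean Apoe was 7938 against 10447 CPM at 3500 to under 8000 UMIs and 6377 against 7380 CPM at 8000 to under 12000. It was 3356 against 4858 CPM at 12000 to under 18000 and 1971 against 5092 CPM at 18000 or more. The part of depth was not tested. Within cycling cells, Igfbp2-high cells had lower Apoe (-1.59 ± 0.11), Apoc1 (-1.85 ± 0.27), Clu (-1.73 ± 0.11) and Dbi (-1.10 ± 0.07) than Igfbp2-low cells, with 43% of genes called, 18.7% lower and 24.3% higher. Abca1 had a value of 0.068 ± 0.15 there and did not pass (edgeR adjusted p = 0.752), while without run 2 it was 0.46 ± 0.16 (edgeR adjusted p = 0.047). The lower Abca1 of cycling Igfbp2-low cells was no longer called when run 3 was left out (-0.44 ± 0.16, edgeR adjusted p = 0.088).

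The contrast within cycling cells depended on where the cycling limit lay. With at least 4 cycle UMIs against 0, the Igfbp2-low cycling class shrank to 20, 29 and 41 cells. The change of Igfbp2-high against Igfbp2-low cycling cells was then 0.016 ± 0.11 for Apoe (edgeR adjusted p = 0.946), -0.094 ± 0.07 for Clu (edgeR adjusted p = 0.409) and 0.51 ± 0.53 for Apoc1 (edgeR adjusted p = 0.576). Dbi kept a change of -0.36 ± 0.07 (edgeR adjusted p = 0.0011). With that limit, cycling against non-cycling Igfbp2-low cells differed by -2.69 ± 0.12 for Apoe. Depth moved with this class as well: Igfbp2-low cycling cells averaged 7938 CPM of Apoe below 8000 UMIs, on 14 cells in the smallest run, and 1971 ± 659 CPM at 18000 UMIs or more, on 12 cells in the smallest run. The part of depth in this contrast was not tested further.

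**Figure D3:**
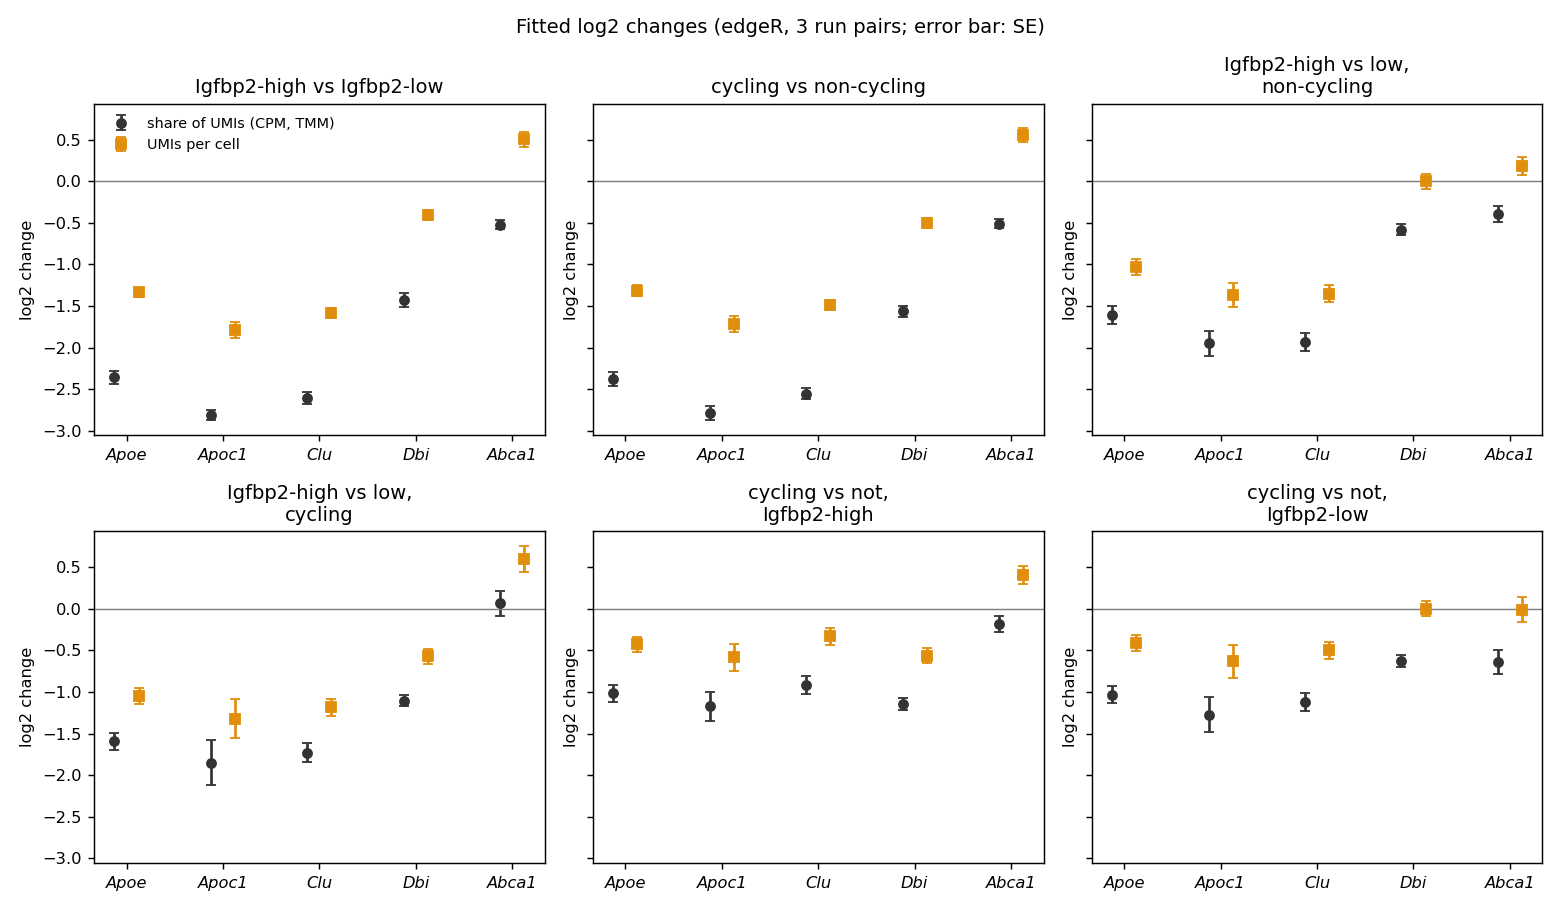
Fitted log2 change of each transcript in 6 comparisons (edgeR, 3 run pairs, error bars SE), as a share of UMIs (black circles) and as UMIs per cell (orange squares). Apoe, Apoc1 and Clu lie below 0 in every panel on both scales, whereas Abca1 lies above 0 per cell in the comparison of all Igfbp2-high with all Igfbp2-low cells.

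The difference between the cycling changes in Igfbp2-high and Igfbp2-low cells was tested as an interaction, for which 9.97% of genes were called, 4.61% higher and 5.36% lower. Dbi was the only member called, with -0.52 ± 0.10 (edgeR adjusted p = 0.0032). The value for Apoe was 0.016 ± 0.15, for Apoc1 0.10 ± 0.29, for Clu 0.21 ± 0.15 and for Abca1 0.46 ± 0.18, and these 4 did not pass. The Dbi value moved with cells that carry astrocyte markers. There were 232 cells with at least 2 UMIs of Pax2 and Pdgfra, of which 187 were Igfbp2-high and non-cycling, and they had 9838, 8477 and 6970 CPM of Dbi. Without them Igfbp2-high non-cycling cells averaged 3190 ± 282 CPM of Dbi, against 3924 ± 374 CPM with them, and the interaction was -0.28 ± 0.10 (edgeR adjusted p = 0.094). Leaving out run 2 the interaction missed the threshold (-0.41 ± 0.15, edgeR adjusted p = 0.176), as it did with no run block (-0.53 ± 0.17, edgeR adjusted p = 0.112). Its direction turned to 0.29 ± 0.09 in cells thinned to 3500 UMIs (edgeR adjusted p = 0.041) and to 0.16 ± 0.10 with at least 4 cycle UMIs (edgeR adjusted p = 0.315). The classes were set after thinning, so thinning also moved cells from the cycling to the non-cycling class. Igfbp2-high non-cycling cells then numbered 1159, 967 and 884 in runs 1, 2 and 3, against 612, 475 and 470 without thinning. The split of all calls also moved with the scaling, with 417 higher and 1071 lower by RLE size factors against 652 and 759 by TMM. Abca1 passed without run 2, at 0.81 ± 0.19 (edgeR adjusted p = 0.029).

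These astrocyte-marked cells had their own pattern among the members. Their 5 listed astrocyte markers summed to 6374 to 7861 CPM, a sum that includes Pax2 and Pdgfra, which set the class, and is mostly Gfap. Gfap averaged 5273 CPM and S100b 1127 CPM in them, against 510 and 19.9 CPM in all cells other than microglia. Aldh1l1 of the same list went the other way, with 39.9 CPM against 105 CPM. Dbi averaged 8428 ± 1434 CPM in them, against 6036 ± 146 CPM in Igfbp2-low non-cycling cells (SD, n = 3). Apoc1 averaged 6.11 ± 1.05 CPM in astrocyte-marked cells, against 73.1 ± 11.3 CPM in Igfbp2-low non-cycling cells. Apoe averaged 2686 ± 883 CPM and Abca1 23.3 ± 3.45 CPM in astrocyte-marked cells, against 7307 ± 600 CPM of Apoe and 58.2 ± 7.81 CPM of Abca1 in Igfbp2-low non-cycling cells. No test was made of these cells.

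Microglia, the immune cells of the retina, differed from the other cells in a gene-specific way. They are 62 cells of a sort for tdTomato, and the other microglia markers checked the label: Cx3cr1 had 409, 255 and 168 CPM and Tyrobp 2509, 1482 and 2580 CPM in runs 1, 2 and 3. In run 3, with 7 cells, the microglia markers P2ry12 and Tmem119 were at 0. The monocyte genes Ly6c2 and Ccr2 had 1156 and 268 CPM there, against 58.4 and 37.5 CPM in run 1 and 25.8 and 42.0 CPM in run 2. The other 3 genes of that list of neutrophils and monocytes did not show this contrast: Lyz2 had 5217, 4721 and 5378 CPM in runs 1, 2 and 3, S100a8 had 0 to 16.8 CPM and S100a9 was at 0. The 10 Müller glia markers summed to 1552 to 2396 CPM in microglia, and doublets were not removed. Its part in the values below was not tested apart from the alternative with little Rlbp1 and Glul. In this comparison 24.5% of 14474 genes were called, 10.5% higher and 14% lower.

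Abca1 was higher in microglia, with 107, 136 and 151 CPM in microglia, against 42.8, 48.4 and 56.4 CPM in the other cells. The change was 1.49 ± 0.26 (edgeR adjusted p = 2.38e-07), and the runs did not overlap, as was so for 11.5% of genes on the higher side. It did not pass when cells were thinned to 3500 UMIs (0.72 ± 0.44, edgeR adjusted p = 0.311). Clu was lower, with 718, 501 and 402 CPM in microglia, against 4514, 3406 and 2813 CPM in the other cells, a change of -2.68 ± 0.29 (edgeR adjusted p = 2.87e-18), and the runs did not overlap, as was so for 44.3% of genes on the lower side. Dbi was lower as well, with 1386, 1689 and 938 CPM in microglia, against 4462, 4305 and 4050 CPM in the other cells, a change of -1.66 ± 0.29 (edgeR adjusted p = 8.41e-08). In the 56 microglia with fewer than 10 UMIs of Rlbp1 and Glul per 10000, Clu averaged 294 ± 185 CPM and Dbi 947 ± 564 CPM.

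Apoe in microglia did not differ from the other cells beyond the spread between runs. It had 11966, 4140 and 5629 CPM in microglia, against 4823, 4259 and 4844 CPM in the other cells, a change of 0.51 ± 0.29 (edgeR adjusted p = 0.214). Run 1, which gave 40 of the 62 cells, set the value: the change was -0.077 ± 0.33 without run 1 and 0.81 ± 0.17 (edgeR adjusted p = 1.26e-05) without run 3. In the fit without run 3, Apoe was higher in microglia in run 1 and slightly lower in run 2. The SE and p of that fit do not reflect this disagreement. Against Igfbp2-low non-cycling cells alone the change of Apoe was -0.20 ± 0.26. Single microglia spread widely. In run 1, 21 of 40 cells had more than 10000 CPM of Apoe and 8 had fewer than 2000 CPM, and the median cell had 13065, 2379 and 4144 CPM in runs 1, 2 and 3. Apoc1 rested on 20 UMIs in all, 13, 7 and 0 in the runs. Its change of -1.03 ± 0.39 (edgeR adjusted p = 0.033) was lost without any 1 of the runs, and the count of 0 in run 3 allows up to 50.3 CPM, a limit that covers counting error only.

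**Figure D4:**
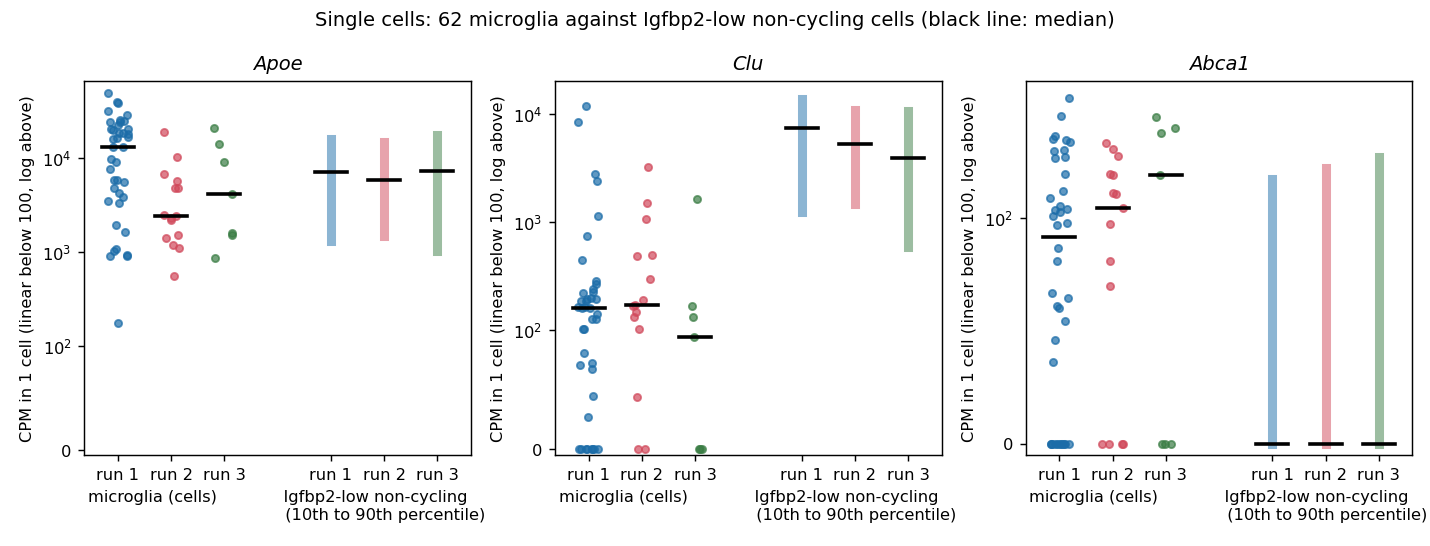
Level of Apoe, Clu and Abca1 in each of the 62 microglia (points; CPM in 1 cell, axis linear below 100 and logarithmic above), beside the 10th to 90th percentile of Igfbp2-low non-cycling cells (bars), with medians as black lines. Apoe spans a wide range in run 1 microglia around a median of 13065 CPM, and most microglia lie below the bar of their run for Clu.

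Across single cells other than microglia, thinned to 3500 UMIs, Apoe and Clu ranked together, with Spearman correlations of 0.80, 0.75 and 0.81 in runs 1, 2 and 3 (7628, 8784 and 8198 cells). Clu and Dbi followed in run 1 at 0.70, and Abca1 with Apoe at 0.06, where few cells have an Abca1 UMI. Cells of a run share the library, and these values carry no test. Over 18 profiles (6 classes in 3 runs), the 3 genes of 2872 most like Apoe by Pearson correlation of log2(CPM + 1) were Ten1, Sepp1 and Itm2b, at 0.96, 0.95 and 0.95. Those most like Apoc1 were Use1, Atp1b2 and E130114P18Rik, like Clu Glul, Fbxo2 and Aldoc, like Dbi Rras, Ttyh1 and Ogt, and among those most like Abca1 were Cd302 and Lrp1. Clu and Glul, the glutamine synthetase of Müller glia, reached 0.98. Over these profiles, which include microglia, Apoe and Clu were at 0.49. Pairs of members ran from -0.47 for Dbi with Abca1 to 0.94 for Clu with Dbi. The profiles share cells' class and run, so these are descriptions.

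The other genes of lipid transport were read from 7 lists. Over all genes, Igfbp2-high against Igfbp2-low cells gave 39.9% higher and 41.6% lower with a median of -0.036 as a share of UMIs, and 74% higher and 12.4% lower with a median of 0.99 per cell. The change of scale moves all genes together, so each list is to be read against these values. As a share of UMIs, 10 of 13 lipid exporters fell and 1 rose, with a median change of -0.52. Per cell the exporters gave 7 higher and 5 lower, with a median of 0.50, so the list median lay below that of all genes on both scales. Abca8a, a transporter of the Abca family, had 33.1 ± 5.39 CPM in Igfbp2-high and 207 ± 20.4 CPM in Igfbp2-low cells, a change of -2.60 ± 0.07, and it fell per cell too. Abcg1, a sterol exporter and LXR target named after its values were seen, had 5.22 ± 0.769 CPM in Igfbp2-high and 15.9 ± 1.85 CPM in Igfbp2-low cells. It changed by -1.56 ± 0.08, and by -0.54 ± 0.10 per cell.

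Of 16 regulators of the LXR, RXR and SREBP families, 14 fell and 1 rose as a share of UMIs, with a median of -0.56 against -0.036 over all genes. Per cell 11 were higher and 2 lower, with a median of 0.46 against 0.99 over all genes, of which 74% were higher. Srebf1, which drives fatty acid synthesis, had 18.8 ± 2.84 CPM in Igfbp2-high and 51.1 ± 9.81 CPM in Igfbp2-low cells, a change of -1.40 ± 0.05. Nr1h3, which encodes LXRα and was named after its values were seen, changed by -1.69 ± 0.12, and by -0.67 ± 0.13 per cell. Nr1h2, which encodes LXRβ, changed by -0.25 ± 0.05 as a share and by 0.77 ± 0.09 per cell.

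Of 17 acyl-CoA and fatty acid binding genes, 11 fell and 5 rose as a share, against 41.6% lower and 39.9% higher over all genes. Per cell 6 were higher and 5 lower, against 74% higher and 12.4% lower over all genes. Fabp5, a fatty acid binding protein named after its values were seen, was higher, with 122 ± 9.99 CPM in Igfbp2-high and 12.6 ± 0.817 CPM in Igfbp2-low cells and a change of 3.31 ± 0.08. Lpl, the lipoprotein lipase, likewise named after its values were seen, had 4.52 ± 1.56 CPM in Igfbp2-high and 0.336 ± 0.244 CPM in Igfbp2-low cells and changed by 3.85 ± 0.20. Both genes were far higher in microglia, Fabp5 at 833 ± 408 CPM and Lpl at 232 ± 183 CPM, although microglia were left out of the Igfbp2 comparison. The summed microglia markers were alike there, 41.9 to 51.5 CPM in Igfbp2-high cells and 31.3 to 55.6 CPM in Igfbp2-low cells.

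Of 18 lipoprotein-associated genes, the members Apoe, Apoc1 and Clu among them, 11 fell and 5 rose as a share, and 8 were higher and 8 lower per cell. Of 18 lipoprotein receptors 8 rose and 6 fell, of 23 sterol handling genes 6 rose and 11 fell, and of 19 cholesterol synthesis genes 8 rose and 6 fell as a share, where 39.9% of all genes were higher and 41.6% lower. Per cell 16, 19 and 18 of these were higher, where 74% of all genes were. Lrp1, an ApoE receptor, had 32.4 ± 1.85 CPM in Igfbp2-high and 56.6 ± 2.76 CPM in Igfbp2-low cells, a change of -0.76 ± 0.05 as a share and 0.26 ± 0.09 per cell. Mvk, an early enzyme of the cholesterol pathway, had 51.4 ± 4.09 CPM in Igfbp2-high and 28.1 ± 2.11 CPM in Igfbp2-low cells, a change of 0.92 ± 0.05. In cycling cells against non-cycling cells the exporters gave 0 higher and 11 lower, the regulators 1 higher and 13 lower and the receptors 5 higher and 9 lower as a share of UMIs, where 39.4% of all genes were higher and 42.3% lower. Per cell the same lists gave 7 higher and 4 lower, 11 higher and 2 lower, and 15 higher and 2 lower, where 74.2% of all genes were higher and 11.8% lower.

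**Figure D5:**
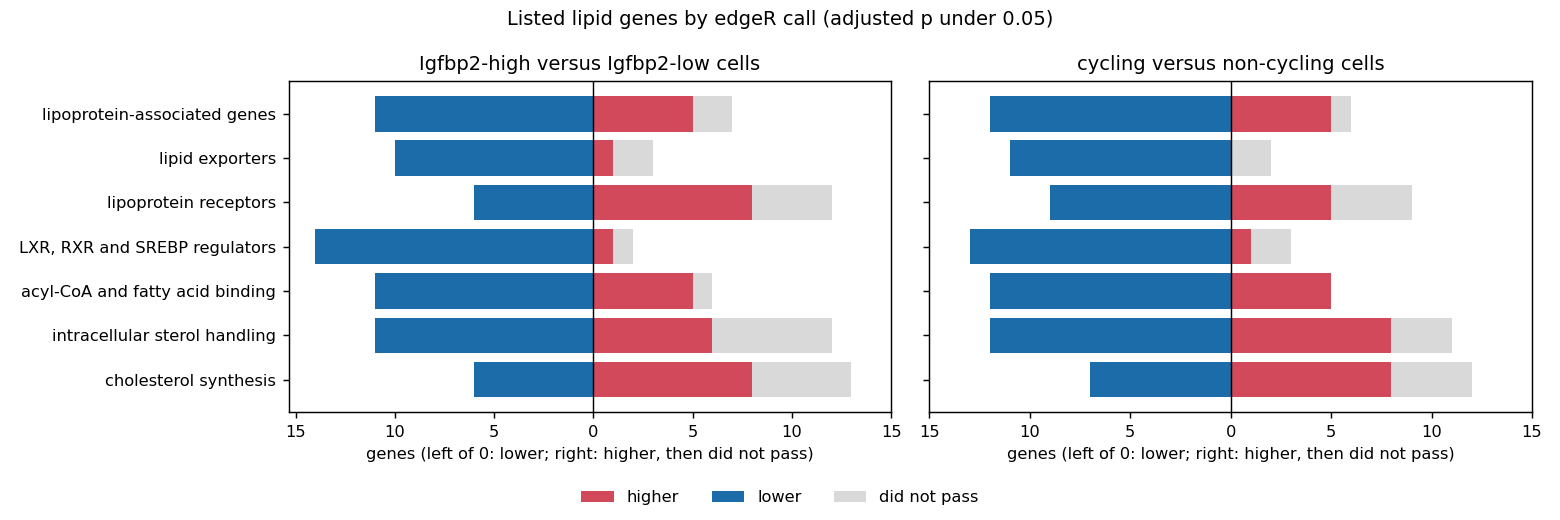
Number of genes of 7 lists called lower (blue, left of 0), higher (red) or not called (grey, right of the red) as a share of UMIs, in Igfbp2-high against Igfbp2-low cells and in cycling against non-cycling cells (edgeR adjusted p under 0.05). Exporters and the LXR, RXR and SREBP regulators lie mostly left of 0 on this scale, with 10 of 13 and 14 of 16 lower in Igfbp2-high cells; all genes gave 41.6% lower and 39.9% higher, and per cell these 2 lists gave more genes higher than lower, as did all genes.

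In microglia the exporters split, with 4 of 13 higher and 4 lower than in other cells, with a median of -0.79 against -0.37 over all genes, of which 10.5% were higher and 14% lower. Abcg1 had 53.0 ± 3.56 CPM in microglia and 11.2 ± 1.36 CPM in the other cells, a change of 2.46 ± 0.35. Scarb2, a lysosomal membrane protein, changed by 1.21 ± 0.26 and Abca8a by -2.83 ± 0.38. Of 19 lipoprotein receptors 7 rose and 4 fell, and Lrp1 rose by 1.82 ± 0.26. The 7 include Trem2, Msr1 and Cd36, named after their values were seen, with changes of 11.7, 8.93 and 4.76. Trem2 is also one of the microglia markers that checked the label. Npc2, which carries cholesterol out of lysosomes, had 1277 ± 315 CPM in microglia and 386 ± 22.3 CPM in the other cells, a change of 1.71 ± 0.26 (edgeR adjusted p = 9.40e-10).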

How the data were processed

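Single-cell RNA of 3 10X Chromium 3' runs, all of 1 group, was analysed. The authors deposited whole-number UMI counts for every gene in each cell; per the submitters' processing notes they used Cell Ranger, version not given in the sources used here, and mm10. The deposited natural log table, made with Seurat 2.3.4 per the submitters' processing notes, equalled ln(1 + 10000 × count / total) of 13511 of the 24695 cells to within 5.00e-07; it was used only to choose cells for an alternative. Filters removed cells under 500 genes or over 20% mitochondrial UMIs; doublets stayed in. For each class the counts of a run were added up, low genes dropped by filterByExpr, and TMM scaling applied before edgeR 4.0.16's quasi-likelihood test (R 4.3.3, limma 3.58.1, Python 3.11.15, numpy 2.4.6, scipy 1.17.1, pandas 2.3.3), with class-defining genes left out. The run was a block because both classes of a pair come from the same library. Each SE was obtained from the log2 change and its F statistic. The method was tested on simulated counts with few changed genes and no difference between runs beyond depth, which is unlike these data. The members and lists were chosen with earlier results of these data known. Named genes are the members, up to 4 other genes per list with the highest mean CPM, the 3 genes most like each member and those said to be named after their values were seen. Some items that the rule names are not reported here. The UMIs-per-cell scale, depth bins and the sixth motif were added after the data were seen. Alternatives were RLE size factors, no low-count filter, DESeq2 1.42.0, no block, leaving out a run, other cells and other limits.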

Additional observations from a re-analysis of the deposited data

Results flagged for a closer look

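Dbi was flagged because its change with cycling differed between Igfbp2-high and Igfbp2-low cells by the interaction term, -0.52 ± 0.10 (edgeR adjusted p = 0.0032). Cycling against non-cycling cells differed by -1.15 ± 0.07 in Igfbp2-high cells and by -0.63 ± 0.07 in Igfbp2-low cells. The direction turned, to 0.29, when cells were thinned to 3500 UMIs, which also moved cells from the cycling to the non-cycling class. Astrocyte-marked cells, depth and the cycling limit moved with this value, and their part in it was not separated.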

How the results depend on the processing

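As a share of UMIs, all 5 members kept their direction and call in Igfbp2-high against Igfbp2-low cells and in cycling against non-cycling cells under all 14 alternatives. With UMIs per cell Abca1 reversed, to 0.50 and 0.55. The cause of the changes below was not tested, except where fewer samples, cells or another scale define the alternative. All values are log2 changes unless they are counts of genes called.

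In microglia, Apoe was -0.12 when thinned and -0.20 against Igfbp2-low non-cycling cells, and -0.077 to 0.81 leaving out each run. Apoc1 did not pass with DESeq2 (-1.19), per cell (-0.76), with C1q at least 30 against 0 (-1.04), with little Rlbp1 and Glul (-1.01) or without any run (-1.39 to -0.85). Abca1 thinned was 0.72. Calls were 2329 with DESeq2, 1837 thinned and 1516 (without run 1) to 3749 leaving out each run, against 3548. No microglia were in the log table, so that alternative gave no value.

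Per cell, calls in the 4-class contrasts were mostly higher: 8464 higher and 1582 lower for Igfbp2-high against low non-cycling cells, 7233 and 1213 for cycling cells, 8963 and 981 for cycling in Igfbp2-high cells, 6756 and 64 for cycling in Igfbp2-low cells, 308 and 670 for the interaction; microglia gave 1544 and 1056. Member values per cell were -0.0023 (Dbi) and 0.18 (Abca1) for Igfbp2-high against low non-cycling cells, 0.60 (Abca1) for cycling cells, 0.41 (Abca1) for cycling in Igfbp2-high cells and 0.0048 (Dbi) and -0.0077 (Abca1) for cycling in Igfbp2-low cells. With no replicate block, Abca1 gave -0.39 for Igfbp2-high against low non-cycling cells and -0.65 for cycling in Igfbp2-low cells, and the Dbi interaction was -0.53 (adjusted p = 0.112 in edgeR), each no longer past the threshold; calls were 2255 for cycling in Igfbp2-low cells (3424 with the block) and 491 for the interaction (1411). In log-table cells Abca1 was -0.19 for Igfbp2-high against low non-cycling cells. In cycling cells, Igfbp2-high against low gave 0.016 (Apoe), 0.51 (Apoc1) and -0.094 (Clu) with at least 4 cycle UMIs, -0.66 (Apoc1) thinned, and for Abca1 -0.15 with Igfbp2 at least 10 against 0 and -0.16 to 0.46 leaving out each run; calls were 3846 in log-table cells, 766 thinned and 2524 with at least 4 cycle UMIs, against 6084. Cycling in Igfbp2-high cells passed for Abca1 with RLE (-0.23), log-table cells (-0.36), astrocyte-marked cells left out (-0.30) and Rlbp1 and Glul at least 5 (-0.35); thinned calls were 3674, against 7326. Cycling in Igfbp2-low cells gave, for Abca1, -0.75 thinned, -0.45 with Igfbp2 at least 10 and -0.97 to -0.44 leaving out each run; calls were 6820 per cell, 2126 with Igfbp2 at least 10 and 1855 (without run 3) to 2778 leaving out each run.

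The interaction was the least stable. Apoe was -0.067 with RLE, -0.067 with DESeq2, -0.023 per cell, 1.04 thinned, -0.036 without astrocyte-marked cells, -0.13 with Igfbp2 at least 10, 1.58 with at least 4 cycle UMIs, -0.064 with Rlbp1 and Glul at least 5 and -0.22 to 0.12 leaving out each run. Apoc1 was -0.017 with DESeq2, -0.23 in log-table cells, -0.075 without astrocyte-marked cells, -0.22 with Igfbp2 at least 10, 2.35 with at least 4 cycle UMIs, -0.016 with Rlbp1 and Glul at least 5 and -0.30 to 0.33 leaving out each run. Clu was 0.89 in log-table cells, 0.94 thinned, 1.78 with at least 4 cycle UMIs and -0.071 to 0.38 leaving out each run. Dbi was -0.043 in log-table cells, 0.29 thinned, -0.28 without astrocyte-marked cells, 0.16 with at least 4 cycle UMIs and -0.65 to -0.41 leaving out each run, failing without run 2. Abca1 was 0.56 without the low-count filter, 0.78 with at least 4 cycle UMIs and 0.24 to 0.81 leaving out each run. Calls were 443 (without run 2) to 869 leaving out each run. RLE gave 417 higher and 1071 lower, against 652 and 759 with TMM.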
